A study of Mus musculus with 7 samples.

Results

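Heavy chains that were joined without N additions were found in 249 of 17381 lymph node cells with exactly 1 productive heavy chain. Members were chosen by 2 measured values, the lengths of the N regions: a cell was taken when the alignment of its heavy chain left 0 bases between V and D and 0 bases between D and J. Both lengths were given for 15690 cells, so the chosen cells were 1.59% of them (exact 95% interval 1.40 to 1.79). The other 1691 cells had no D call and could not be placed. Of the chosen cells, 245 carried IgM or IgD, and they are set against the 14752 other unswitched cells with both lengths.

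The cells came from deep cervical (dCLN), superficial cervical (sCLN) and inguinal (iLN) lymph nodes of wild-type (WT) and 5xFAD mice, a transgenic model of Alzheimer's disease with amyloid deposits in the brain. All animals were females aged 10 to 11 months. Each node and genotype is 1 library of hashed and combined samples, 6 libraries in all, and the sources used here do not tie cells to animals. The labels give neither the promoter of the transgene nor the background strain. A library that mixes all nodes and both genotypes was used as a value only, and its D genes carry other names, so it was aligned to another D reference.

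An antibody heavy chain is assembled from a V, a D and a J segment, and the exonucleases and the polymerase TdT trim the ends and add bases that no template encodes, the N additions. TdT is scarce in fetal and early neonatal life, so heavy chains made then often lack N additions, and B-1 cells, which largely arise early, are known for such chains. Adult precursors also join ends without additions, so the absence of N bases does not date a cell. The counted gaps also hold P nucleotides, short palindromic copies of a segment's end.

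Such chains can be read against the genome. The segments below are reference sequences (GENCODE M21 on GRCm38, minus strand) to set beside the junctions printed after them; the D2 segment of the first junction and the V genes of the third are not shown. They are IGHV11-2 at chr12:114048241-114048812, IGHV4-1 at chr12:113948282-113948796, IGHD1-1 at chr12:113482170-113482192, IGHD4-1 at chr12:113430528-113430538 and IGHJ1 at chr12:113429781-113429833. The V segment is shown from the codon of the conserved cysteine on, and the J segment up to the conserved tryptophan.
IGHV11-2: tgtatgagata
IGHV4-1: tgtgcaagacc
IGHD1-1: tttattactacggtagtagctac
IGHD4-1: ctaactgggac
IGHJ1: ctactggtacttcgatgtctgg

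Member junctions run 5′ to 3′ from the cysteine to the tryptophan codon, with the bases aligned to D in capitals. The first, IGHV11-2 with a D2 segment and IGHJ1, came from a WT dCLN and a WT sCLN cell. The second, IGHV11-2 with IGHD1-1, came from a WT iLN cell. The third was shared by 3 different V genes (IGHV1-64, IGHV1-82 and IGHV9-3) in 3 cells of the 5xFAD dCLN library. The fourth was the most repeated member junction, with IGHV4-1.
IGHV11-2, D2, IGHJ1: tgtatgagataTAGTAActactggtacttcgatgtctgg
IGHV11-2, IGHD1-1, IGHJ1: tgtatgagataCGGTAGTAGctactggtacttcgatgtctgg
3 V genes, IGHD1-1, IGHJ1: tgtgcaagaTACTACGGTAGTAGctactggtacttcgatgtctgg
IGHV4-1, IGHD4-1, IGHJ1: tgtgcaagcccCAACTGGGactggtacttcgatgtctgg

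In the first 3 junctions the D bases run straight into IGHJ1, and the last 4 bases of IGHD1-1 are also the first 4 of IGHJ1, so the border between them cannot be set. In the fourth, the base at position 9 of the junction differs from IGHV4-1 in the reference (A9C, counted from the first base of the cysteine codon). The aligner carried the V segment through this base. Its D bases were called from another allele of IGHD4-1 and do not occur in the reference segment shown.

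That reading was not rare. Of the 249 members, 55 had at least 1 mismatch to the called segments inside the junction and 193 had none; 1 had no germline alignment. With C57BL/6J reference segments, a V end, a D piece of at least 5 bases and a J start spelled the whole junction of 181 members with no other base, 67 could not be spelled, and 1 V gene found no match. By the same test 0 of the cells with counted N bases were spelled, and 79 of the 1691 cells without a D call were. Members without a mismatch and those spelled by the reference were also taken alone for some results. These were the tested measures, the bases shared by joined ends and the share of members per library. Junctions repeated between genotypes were rechecked in members without a mismatch only. The values are given where they turn a result. Heavy chain segment use, junction length and light chain V use were not recomputed in either set. Whether those differences hold there was not tested.

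The 6 libraries held 26533 to 96163 heavy chain UMIs (molecules). Members had a median of 12 UMIs and the other cells with both lengths 11. Libraries shared 176 cell barcodes over all 15 pairs, 6 of them with a member on either side, and 0 shared barcodes carried the same heavy junction.

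Members were 36 of 3023 cells in WT dCLN (1.19%), 65 of 3535 in 5xFAD dCLN (1.84%), 48 of 3107 in WT sCLN (1.54%), 29 of 2130 in 5xFAD sCLN (1.36%), 45 of 1991 in WT iLN (2.26%) and 26 of 1904 in 5xFAD iLN (1.37%). The mixed library had 38 of 2296 (1.66%). The 5xFAD share lay above the WT share in dCLN and below it in sCLN and iLN, and the ranges of the genotypes overlap. With 1 library each there is no test within a node.

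The V-D junction lacked N bases in 9.83% of cells and the D-J junction in 18.0%. If both ends had been closed independently, the product would give 1.77% of cells, and 1.59% were observed. The product lay inside the counting interval of 5 libraries. In WT dCLN it was 1.65% against an interval of 0.835% to 1.645%. Cells closed without N at one end were therefore not in excess at the other in the pooled cells, and this is a description of these libraries.

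**Figure D1:**
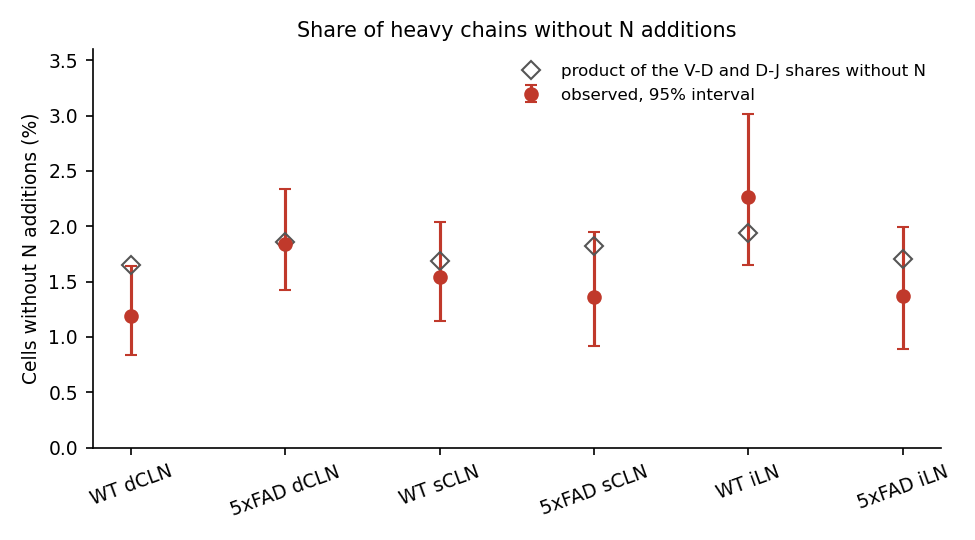
Share of cells whose heavy chain has 0 N bases at both junctions, in percent, for each of the 6 libraries. Red points are observed shares with exact 95% intervals that cover counting error only; open diamonds are the product of the shares without N at V-D and at D-J. Shares run from 1.19% in WT dCLN to 2.26% in WT iLN.

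Cells with few N bases lay close to the members in junction length. In IGHJ1 and IGHV1 use they lay between the members and all other unswitched cells. Just outside the rule stood 476 unswitched cells with 1 N base and 771 with 2. Mean junction length was 35.9 bases in members, 37.2 with 1 N base and 38.3 with 2. IGHJ1 took 31.8%, 23.1% and 26.1% of these classes, and IGHV1 44.9%, 55.9% and 52.3%. A mismatch inside the junction was present in 22.4%, 16.2% and 9.99%. Over all other unswitched cells the mean junction length was 43.5 bases, and IGHJ1 took 19.0% and IGHV1 58.1%.

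Heavy chain segment use comes from the alignment that chose the cells, so it is described without a test. Among the J genes, which lie nearest to the constant regions, IGHJ1 and IGHJ2 lead the members. IGHJ1 was used by 25% of members in WT dCLN, 40.6% in 5xFAD dCLN, 29.8% in WT sCLN, 21.4% in 5xFAD sCLN, 40.9% in WT iLN and 19.2% in 5xFAD iLN. The other unswitched cells ranged from 18.0% to 19.7%. Members were above their own library's value in 5 of 6 libraries, and pooled IGHJ1 use was 31.8% (78 of 245) against 19.0%. The most repeated junction gave 7 of the 78 cells, 5 of them in 5xFAD dCLN, and IGHJ1 use without it was not computed.

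IGHJ3 took 15.1% of members and 23.1% of the others, and IGHJ4 18.4% and 24.5%. Both were lower in members in all 6 libraries, and 2 of the 4 J genes (50%) had 1 sign throughout. IGHJ2 was 34.7% in members and 33.4% in the others. Seen from the J gene, 2.70% of IGHJ1 cells lacked N bases at both junctions, against 1.70% with IGHJ2, 1.08% with IGHJ3 and 1.23% with IGHJ4. The D-J junction alone lacked N in 27.1% of IGHJ1 cells and 12.6% of IGHJ3 cells, whereas the V-D junction lacked N in 10.7% and 8.66%.

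Among D families, IGHD3 took 34 of 245 members (13.9%, interval 9.81 to 18.9) and 5.67% of the other cells. The member values by library ran from 11.1% to 17.9% and those of the others from 4.82% to 6.44%, so the ranges do not overlap. Of the 6 D families, 2 (33.3%) had 1 sign in all 6 libraries, IGHD3 and IGHD5. IGHD5 had 0 members and 0.515% of the others, so its sign follows from the 0.

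The gap was wider among short D matches. Among cells with 5 to 7 aligned D bases IGHD3 took 22.3% of members and 9.34% of others, and among those with 8 or more 7.80% and 4.50%. A call shared by IGHD3-1 and IGHD3-2, which so few bases cannot separate, accounted for 15 of the 34 member cells. IGHD1-1, the most used D gene, took 32.2% of members and 36.3% of others. IGHD4-1, the D segment farthest towards J, took 14.7% and 10.8%, and IGHD2-3 took 10.2% and 7.97%. Of the 36 members with IGHD4-1, 7 were cells of the most repeated junction, and the share without them was not computed. With 5 to 7 aligned D bases IGHD4 took 19.4% of members and 22.0% of others. With 8 or more it took 11.35% and 7.18%, and the most repeated junction, with 8 D bases, falls in this class. The IGHD2 family as a whole was 27.8% against 37.5%. The joint call of IGHD2-5 and IGHD2-6 made up 5.71% and 5.38%.

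The V families sit upstream, with IGHV2 and IGHV5 nearest to D and IGHV1 and IGHV8 far away. IGHV1, the largest mouse family, was 38.9%, 40.6%, 48.9%, 35.7%, 56.8% and 46.2% of members in WT dCLN, 5xFAD dCLN, WT sCLN, 5xFAD sCLN, WT iLN and 5xFAD iLN. The other cells lay between 56.3% and 59.5%. It was lower in members in all 6 libraries, with WT iLN closest (56.8% against 57.6%). Of 15 V families, 3 (20%) kept 1 sign in all 6, and the other 2, IGHV13 and IGHV15, had 0 members, which fixes their sign.

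IGHV8, also distal, was 9.39% of members and 5.48% of the others, so the distal pair together was 54.3% against 63.5%. IGHV3 was 8.16% against 4.24%, higher in 5 of 6 libraries. IGHV4 was 4.08% (10 cells) against 0.732%, also higher in 5 of 6, but 7 of the 10 cells were the most repeated junction, with IGHV4-1. Without it 3 of 238 members (1.26%) used IGHV4, higher in 3 of 6 libraries and 0 in the other 3. The D-proximal pair of IGHV2 and IGHV5 was 16.7% against 15.8%. IGHV5-2, a D-proximal V gene favoured in early rearrangement, was found in 0 of 245 members, which allows up to 1.22%, and in 0.149% of the others. Of 38 IGHV genes with at least 1% of cells, 0 (0%) were higher in members in all 6 libraries and 0 (0%) were lower in all 6, with about 40 members per library.

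**Figure D2:**
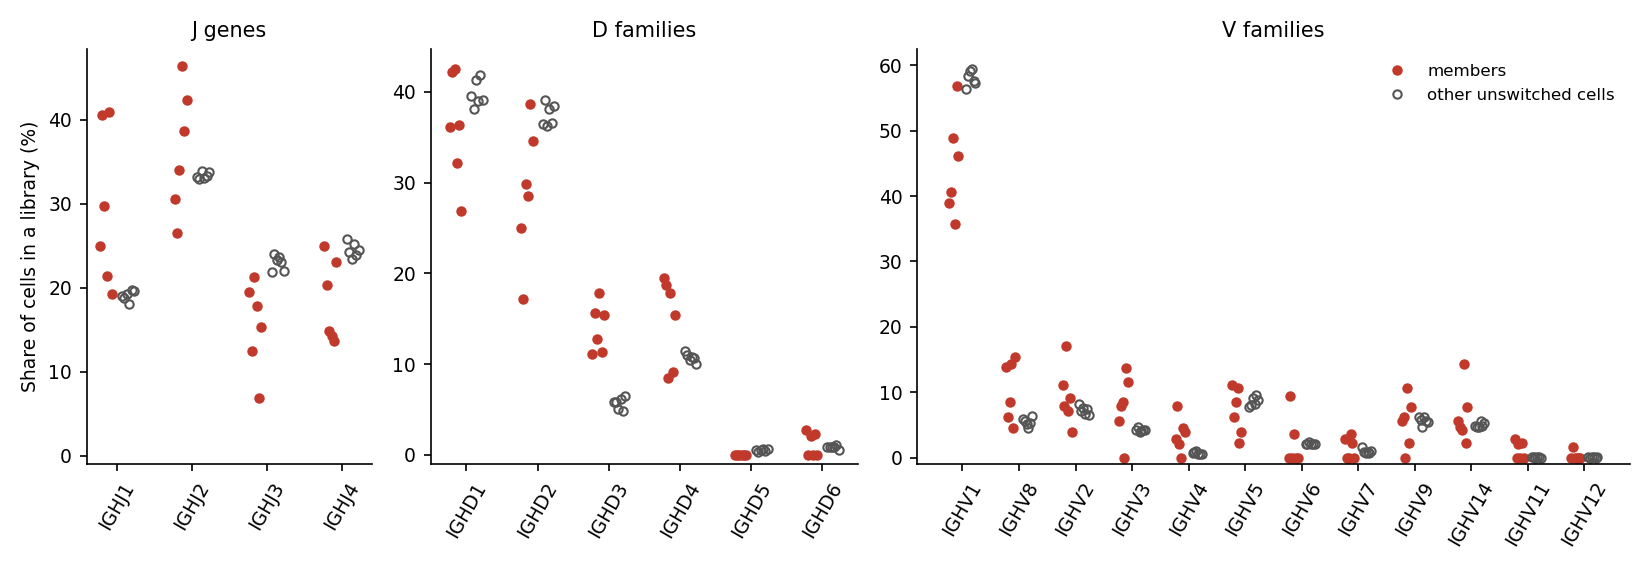
Share of unswitched cells, in percent, that use each J gene, D family and V family. Each filled red point is the members of 1 library and each open grey point the other unswitched cells of that library. IGHD3 is higher in members in every library, IGHV1 lower in every library, and IGHJ1 spreads from 19.2% to 40.9% in members.

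B-1 cells are known for a few V genes that bind self lipids such as phosphatidylcholine, above all IGHV11-2 paired with IGKV14-126 and IGHV12-3 paired with IGKV4-91. IGHV11-2 was used by 3 of 245 members (1.22%) and by 7 of 14752 other unswitched cells (0.0475%). Counted the other way, 3 of the 10 unswitched IGHV11-2 cells with both lengths lacked N bases (30%, interval 6.67 to 65.2). All 3 were IgM, in WT dCLN, WT sCLN and WT iLN, and all 3 carried an IGKV14-126 light chain. The dCLN cell held a second light chain, of IGKV17-127.

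Among the IGHV11-2 cells with N bases, 2 more had IGKV14-126 and 0 N bases at the D-J junction, in 5xFAD dCLN and WT iLN, each beside a second light chain of IGKV4-59. IGHV12-3 was found in 1 member and 5 other cells, and its pairing with IGKV4-91 in 0 members and 1 other cell. IGHV7-1 was found in 2 members and 36 others, and IGHV11-1 in 0 cells. These counts are too small to set libraries or genotypes apart.

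Without N bases the CDR3, the loop between the cysteine and the tryptophan, was shorter. Its mean length was 9.98 ± 2.24 codons (SD, 245 cells) in members and 12.5 ± 2.43 codons in the other cells. By library the members' means ran from 9.62 to 10.2 codons and those of the others from 12.39 to 12.55, so the library means do not overlap. Single cells of the 2 groups do overlap in length. A CDR3 of 8 codons or fewer was present in 24.9% of members and 4.67% of others. The longest member loop had 16 codons and the longest other loop 23.

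The rule itself removes N bases, so a shorter loop is part of the choice. Others carried a mean of 4.21 N bases at V-D and 3.01 at D-J. The bases read as germline were 35.9 in members and 36.2 in others, split differently: V gave 9.23 and 8.99 bases, D 9.49 and 11.3, and J 17.2 and 16.0. A D match of 5 or 6 bases was present in 28.6% of members and 16.3% of others.

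**Figure D3:**
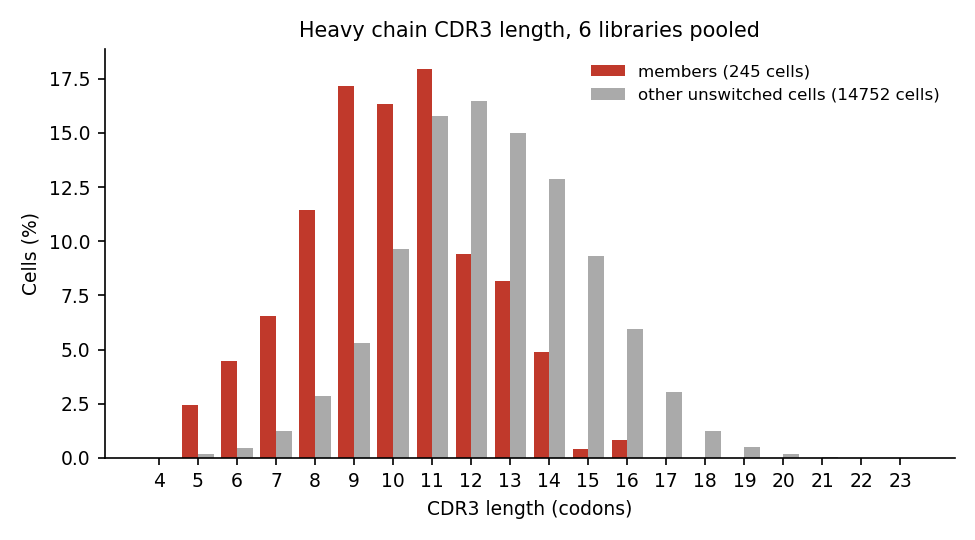
Length of the heavy chain CDR3 in codons (horizontal axis) against the percent of cells (vertical axis). Red bars are the 245 unswitched members and grey bars the 14752 other unswitched cells, pooled over 6 libraries. The mean is 9.98 codons in members and 12.5 in the others.

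Ends that share a few bases can be joined through them, which is known for chains made without TdT. Shared bases were counted at each junction without N additions, in members and in cells that lacked N at that junction alone. At D-J, members shared a mean of 1.89 bases in WT dCLN, 1.56 in 5xFAD dCLN, 1.89 in WT sCLN, 1.86 in 5xFAD sCLN, 2.33 in WT iLN and 1.62 in 5xFAD iLN. The comparison cells shared 1.61 to 1.95. The mean difference was 0.114 ± 0.211 bases (SD, 6 libraries), higher in 4 of 6. A D-J overlap of 3 or more bases was present in 36.1% of members and 33.4% of the comparison cells.

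At V-D the overlap was small in both, 0.369 bases in members and 0.453 in the comparison cells. The mean difference over libraries was -0.051 ± 0.128 bases. Neither mean difference exceeded the SD of the differences between libraries, and both are read from the alignment that chose the members, so they are given as a description with no test. The overlap of both ends depends on the segments. The D1 family with IGHJ1, the most frequent pair, was 18.0% of members and 10.3% of others. Of its 44 member cells 31 (70.45%) shared 3 or more bases, as in the junction with 3 V genes printed above. In the 417 comparison cells of that pair it was 63.07%. In D1 with IGHJ2 that was 4 of 21 member cells (19.05%) against 21.91% of comparison cells. In D4 with IGHJ1 it was 0 of 13, of which 7 cells were the repeated IGHV4-1 junction, and 0% of comparison cells.

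The tests concern 6 measures that the rule did not use. Each sets the members of a library against other cells of that library, by an exact two-sided sign-flip test over 6 libraries whose smallest p is 0.0312. The other cells are unswitched, except for the switched share, which uses all members and all other cells with both lengths and a constant region call. Benjamini-Hochberg adjustment ran over 8 results, these 6 and the 2 overlaps above. Whether libraries came from the same animals is not stated, so the pairs may not be independent. None of the 6 passed. A single result at the smallest p could not pass after this adjustment, so failing to pass does not show that members and others are alike.

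Light chains are joined later, when TdT is low, and mostly lack N additions. A light chain without N bases was present in 27 of 30 members with 1 light chain in WT dCLN (90%), 58 of 60 in 5xFAD dCLN, 43 of 44 in WT sCLN, 25 of 26 in 5xFAD sCLN, 41 of 43 in WT iLN and 23 of 24 in 5xFAD iLN. The other cells lay between 96.0% and 96.6%. The mean difference was -0.961 ± 2.599 percentage points (higher in 2 of 6 libraries; exact p = 0.562, adjusted p = 0.643). Over the pooled cells a light chain without N bases was present in 95.6% of members (interval 92.0 to 97.9) and 96.2% of others. These values do not show that the shares are alike.

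Lambda chains, the rarer light chain class in mice, were present in 12 of 227 members (5.29%, interval 2.76 to 9.05) and 4.49% of others. The difference was 1.86 ± 4.48 points, higher in 3 of 6 libraries (exact p = 0.375, adjusted p = 0.542). IGKJ1, the J segment nearest to the kappa V genes, was used by 57 of 215 kappa members (26.5%, interval 20.7 to 32.9) and 29.5% of others. That difference was -2.73 ± 6.83 points, lower in 5 of 6 libraries (exact p = 0.344, adjusted p = 0.542). Without all cells that combine IGHV4-1, IGHJ1 and IGKV1-110, among them the most repeated receptor, which uses IGKJ1, the difference was -5.22 points (exact p = 0.156, adjusted p = 0.542), and in the members spelled by the reference it was -9.72 points (exact p = 0.0312, adjusted p = 0.25). Both were computed after seeing the data.

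Among 42 light chain V genes with at least 1% of cells, 4 (9.52%) had 1 sign in all 6 libraries. IGKV1-110 (chr6:68270485-68271267, plus strand) was 3.33%, 8.33%, 6.82%, 7.69%, 6.98% and 8.33% of members in WT dCLN, 5xFAD dCLN, WT sCLN, 5xFAD sCLN, WT iLN and 5xFAD iLN, against 2.15% to 3.29% of others. Every member value lies above the others' range, but barely in WT dCLN, where the others had 3.29%. In both dCLN libraries the member value came from the most repeated receptor alone, with 1 cell in WT dCLN and 5 in 5xFAD dCLN. The single sign in all 6 libraries therefore depends on that receptor. IGKV1-135 was 4.85% of members and 2.49% of others. IGKV16-104 was found in 0 of 227 members, which allows up to 1.32%, and in 1.12% of others, and IGKV3-7 in 0.441% (1 cell) and 1.35%. A gene with 0 members is lower in every library where the others use it, so the sign and p of IGKV16-104 follow from the 0. All 4 have the smallest exact p of 0.0312 and an adjusted p of 0.328 over the 42 genes, so none passed. With 6 libraries a few genes at the smallest p cannot pass this adjustment, so it does not show that V use is alike.

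Of the 16 members with IGKV1-110, 7 were the most repeated receptor. The other 9 had 9 different heavy chain V genes, and they were 4.09% of the remaining members, higher than the others in 4 of 6 libraries. No IGKV1-110 member remained in either dCLN library.

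Members were nearly all unswitched. By isotype 197 were IgM, 48 IgD, 2 IgG2b and 1 IgG3, and 1 had no constant region call. Switched cells were 3 of 248 members (1.21%, interval 0.25 to 3.49) and 505 of 15257 others (3.31%). They were 0 of 36 in WT dCLN, which allows up to 8.33%, 1 of 65 in 5xFAD dCLN, 0 of 47 in WT sCLN, 1 of 29 in 5xFAD sCLN, 1 of 45 in WT iLN and, last, 0 of 26 in 5xFAD iLN. The difference was -1.82 ± 2.26 points, lower in 4 of 6 libraries (exact p = 0.156, adjusted p = 0.542). A lower switched share was thus neither shown nor excluded. The 3 switched members used IGHV1-15, IGHV7-3 and IGHV14-4, and 2 of them carried V mismatches.

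IgD as the recovered isotype was 13.9%, 21.9%, 12.8%, 21.4%, 20.5% and 30.8% of unswitched members in WT dCLN, 5xFAD dCLN, WT sCLN, 5xFAD sCLN, WT iLN and 5xFAD iLN. The other cells had 28.1%, 16.8%, 23.6%, 20.0%, 22.5% and 20.9% in the same order. The mean difference was -1.78 ± 9.28 points (exact p = 0.688, adjusted p = 0.688), with all 3 WT libraries below 0 and all 3 5xFAD libraries above. Naive cells co-express IgM and IgD, so the isotype of a contig reflects which transcript was assembled.

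The V segment before the CDR3 was unmutated in 97.1% of unswitched members (interval 94.2 to 98.8) and 97.3% of the others. Mean mutation was 0.0115% of V bases in members and 0.0192% in others, and the difference by library was -0.00682 ± 0.0126 points (exact p = 0.25, adjusted p = 0.542). In members 7 of 244 cells had any mismatch and the highest had 2, whereas the highest of the others had 16.

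**Figure D4:**
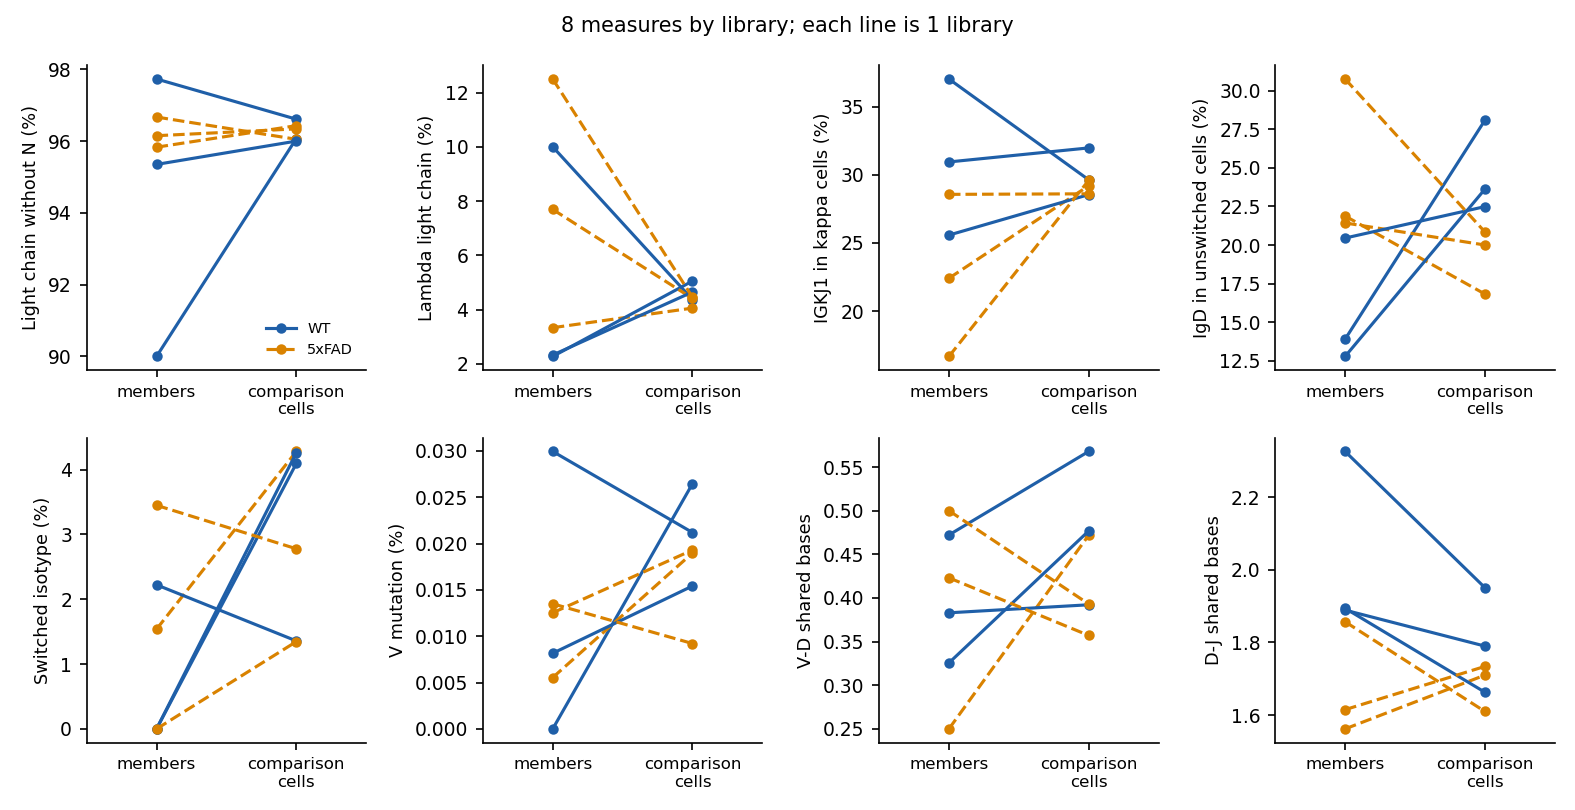
The 6 tested measures and the 2 overlaps, with 1 panel each and 1 line per library from its members (left) to its comparison cells (right). Blue solid lines are WT and orange dashed lines 5xFAD; vertical axes are in percent, or in bases for the 2 panels of shared bases, and do not start at 0 in every panel. Lines cross in most panels, and none of the 6 tested measures passed the exact test.

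Chains without N additions have fewer possible sequences, so the same junction can arise in unrelated cells. The members held 233 different combinations of V, J and junction sequence. Of these, 11 were found in more than 1 cell, 2 in more than 1 library, 1 in both genotypes and 5 also in the mixed library. The 9 repeated within a single library were pairs of cells, 8 of them with the same heavy and light chain in both cells.

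The IGHV4-1 junction printed above was the most repeated. It was in 1 cell of WT dCLN, 5 of 5xFAD dCLN and 1 of WT iLN, in 0 of the other 3, and in 2 cells of the mixed library. All 7 cells were IgM with 0 mismatches in V before the CDR3 and 7 to 27 heavy chain UMIs, and all 7 carried the same light chain junction of IGKV1-110 and IGKJ1. Heavy and light chain junctions were thus identical in libraries of both genotypes. Its D bases were called as allele 02 of IGHD4-1, which was named in 159 of 1718 IGHD4-1 calls. It counts as free of N bases through that allele and the accepted mismatch A9C, and its 7 cells are among the 67 members that the reference could not spell.

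The IGHV11-2 junction with D2 was the other one in more than 1 library, WT dCLN and WT sCLN, and 1 cell of the mixed library also had it. The reference spelled it in full. The third in rank, IGHV14-4 with IGHJ3, was found in 2 cells of WT dCLN, 1 of them without a single light chain to compare. Its sequence shows a short D piece between whole ends.
IGHV14-4, D1 or D2, IGHJ3: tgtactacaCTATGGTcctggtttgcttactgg

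Of 234 distinct member receptors, 3 (1.28%, interval 0.265 to 3.70) shared V, J and junction with a cell of the other genotype, all 3 through the IGHV4-1 receptor. Among the other unswitched receptors it was 8 of 14176 (0.0564%). Without that junction the members' count was 0 of 231, which allows up to 1.299%. When the V gene was left free, 8 of 234 members (3.42%, interval 1.49 to 6.62) and 32 of 14176 others (0.226%) had the same junction in the other genotype. Of the 8, 3 were the IGHV4-1 receptor, and without it 5 of 231 members (2.16%, interval 0.707 to 4.98) remained.

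With more added bases the share was lower. It was 3.08% with 1 N base (14 of 454), 0.663% with 2 (5 of 754), 0.0984% with 3 (1 of 1016), 0.226% with 4 to 6 (10 of 4420) and 0 of 3494 with 10 or more. Members and cells with 1 N base have overlapping intervals, and without the IGHV4-1 receptor the members' value lies below that of cells with 1 N base.

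**Figure D5:**
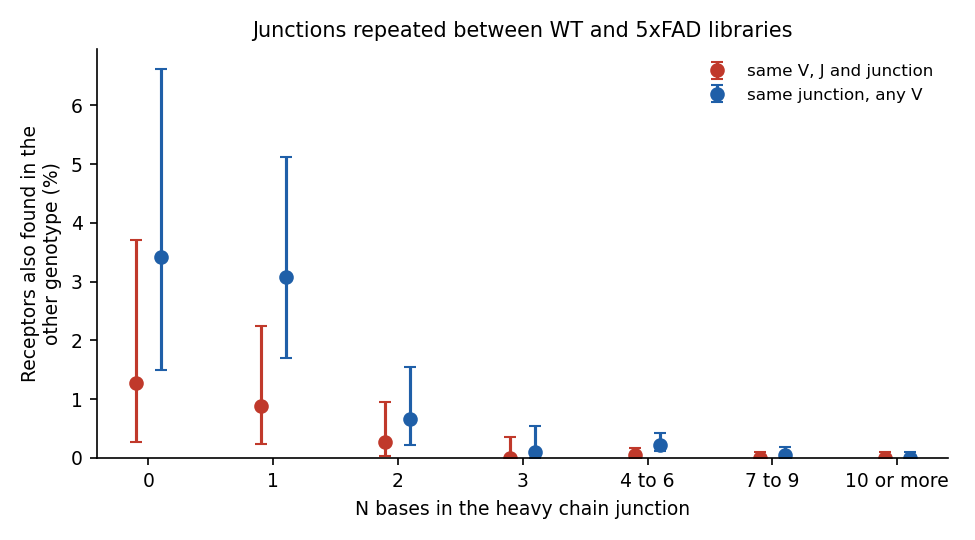
Percent of distinct unswitched receptors whose heavy junction also occurs in a library of the other genotype (vertical axis), by the number of N bases in the junction (horizontal axis). Red points ask for the same V, J and junction and blue points for the same junction with any V; bars are exact 95% intervals that cover counting error only. Receptors with 0 or 1 N base lie highest, at 3.42% and 3.08% for any V.

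Of 18 member junctions that occurred in more than 1 cell when the V gene was ignored, 8 were joined to more than 1 V gene. Besides the junction with 3 V genes, a junction of IGHD2 and IGHJ2 was found with IGHV1-75 in 2 WT sCLN cells and with IGHV1-69 in a WT iLN cell. A junction of IGHD4-1 and IGHJ1 was found with IGHV1-80 and IGHV1-81 in a 5xFAD dCLN and a 5xFAD sCLN cell. The same D and V ends joined to IGHJ2 were found with IGHV1-39 and IGHV1-72, also in those libraries. A junction of IGHD2-3 and IGHJ2 came from a 5xFAD sCLN cell with IGHV9-3 and a WT iLN cell with IGHV1-52. They are shown because each is spelled by the reference with no other base, and because different V genes mean separate rearrangements.
IGHD2, IGHJ2: tgtgcaagaTATGATtactttgactactgg
IGHD4-1, IGHJ1: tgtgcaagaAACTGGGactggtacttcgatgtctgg
IGHD4-1, IGHJ2: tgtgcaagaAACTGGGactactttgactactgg
IGHD2-3, IGHJ2: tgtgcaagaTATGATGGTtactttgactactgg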

How the data were processed

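B cell receptor transcripts of hashed lymph node cells were sequenced by a single-cell 5' kit, per the labels' protocols. The deposited tables give 1 contig per line with UMI and read counts and segment calls, per the file headers. The submitters' processing notes name Cell Ranger 6.0.1, Seurat 4.1.0 and mm10 without a role. The germline set is not given in the sources used here.

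The analysis kept barcodes with 1 productive heavy chain and no second one. A further 21 barcodes held several heavy chains of which 1 lacked N bases, and were left out as possible doublets. Gene expression was not used, so no doublet caller was run. Light chain measures used cells with 1 light chain. The members, lists and tests were chosen with earlier results of these data known.

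The named genes were all J genes and V and D families, the 5 most used D genes, V genes of 1 sign in all 6 libraries (at most 5 heavy and 4 light each way), lists of D-proximal, distal and B-1 associated genes, and junctions ranked by libraries, receptors and cells. Tests were exact sign-flip tests, intervals Clopper-Pearson, in Python with SciPy, and were tested on simulated data. Depth was 26533 to 96163 heavy chain UMIs per library. Intervals and limits for 0 (3 counts) cover counting error only, since cells of a clone are not independent.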

Additional observations from a re-analysis of the deposited data

Results flagged for a closer look

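The difference in IgD share between members and other unswitched cells had opposite signs in the genotypes. It was -9.03 percentage points as the mean of the 3 WT libraries and 5.47 in the 3 5xFAD libraries, a gap of 14.5 points. An exact two-sided permutation test of the genotype labels gave p = 0.1, the smallest that 3 against 3 libraries allow, so the design cannot pass a threshold of 0.05. The result was flagged because its values differed between the genotypes, so this p adds no support. The test took libraries of different nodes as replicates of a genotype and did not pair them by node. With the other cells weighted to the members' heavy chain UMIs, the differences were -11.0 points in WT dCLN, -10.1 in WT sCLN and 3.94 in WT iLN, and 7.55, 1.04 and 12.7 in 5xFAD dCLN, sCLN and iLN, so the WT libraries then no longer share a sign. The members' values rest on 5 to 14 IgD cells per library.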

How the results depend on the processing

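None of 63 alternatives brought any of the 6 tested results or 2 overlaps past an adjusted p of 0.05 (lowest adjusted p 0.25), and 57 kept the direction. An adjusted p of 0.25 is what a single result at the smallest exact p receives, so it could not pass alone. With a D match of at least 8 bases the light chain difference turned to 0.77 points. With up to 1 N base in members, IGKJ1 turned to 1.27 points and IgD to 0.18, and with others weighted by UMIs IgD turned to 0.677. In members without a mismatch in the junction the D-J overlap turned to -0.149 bases, and in members spelled by the reference to -0.0167. With a D match of at least 8 bases the D-J overlap difference was larger, 0.285 bases, again given as a description. Leaving out 1 library gave -1.38 to 0.0607 points for the light chain (turning without WT dCLN) and -4.12 to 0.703 for IgD (without WT dCLN or WT sCLN). The cause of these turns was not tested. Among the 6 tested results, an unadjusted exact p of 0.0312, the smallest possible, was reached in the following settings. IGKJ1 reached it in members without a mismatch (-7.76 points) and spelled by the reference (-9.72), both chosen after seeing the data. The switched share reached it with up to 1 N base (-2.0 points), and V mutation over all isotypes (-0.0804 points). The share of members left its interval in 5xFAD dCLN with at least 8 D bases (1.298%), without a mismatch (1.39%) and spelled by the reference (1.301%), and in WT sCLN spelled by the reference (1.13%). The settings without a mismatch and spelled by the reference drop members from an unchanged total of cells, so the share can only fall there. At 0.5% or more of cells, 7 of 56 light chain V genes had 1 sign in all 6 libraries. Junctions repeated between genotypes with the same V gene fell to 0% of members both without all cells of IGHV4-1, IGHJ1 and IGKV1-110 and without junction mismatches; with any V gene 2.72% of members without junction mismatches remained. Every test paired members with other cells of the same library. WT and 5xFAD libraries of the same node were not paired in any test. Each group is 1 library and the labels number no replicates. With 24 to 60 members per library that carry 1 light chain, differences of a few points could have been missed. The power to find them was not computed.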
